A study of Mus musculus with 23 samples.

Results

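The genes described here are 8 secreted matricellular and matrix-bound regulators that respond to or act on TGF-beta: Ccn1, Ccn2, Ccn3, Tgfbi, Thbs1, Thbs2, Tnc and Ltbp1. They are 8 of the 21264 genes in the deposited expression table, taken by symbol. They were selected on their levels in culture, because several of them were lower in cells that overexpress the Notch1 intracellular domain (NICD1). All 8 passed the filter on low values, at least 1 CPM (reads of a gene scaled to library size) in at least 3 libraries, in the fit of the cultured libraries (12314 genes tested) and in that of the re-isolated libraries (14155 genes tested). RNA was sequenced from 23 libraries of mouse iPAX3 cells, an embryonic stem cell line in which Pax3 is induced to make muscle progenitors. The question was how gain and loss of Notch1 function alter these progenitors and the satellite cells (resident muscle stem cells) that they form after transplantation.

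Cultured control progenitors (4 libraries, genotype labelled WT) were set beside cultured progenitors overexpressing NICD1 (N1OE, 3 libraries). Cells labelled as donor-derived satellite cells, recovered after engraftment, came from WT (9 libraries), NICD1 overexpression (N1OE, 4 libraries) and Notch1 knockout cells (N1KO, 3 libraries). All 23 libraries come from the iPAX3 line. The sources used here do not say whether the derived lines were clones or animals were pooled, nor give the age and strain of the hosts. Nothing in the labels says that libraries of a group came from separate cultures or animals, so the p-values measure the spread between these libraries, which may be technical.

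By their column headers 5 of the 9 re-isolated controls (replicates 1, 4, 7, 8 and 9) carry the suffix GoF and 4 (replicates 2, 3, 5 and 6) do not. The labels do not explain it. These are called marked and unmarked controls below. The description of control replicate 7 lacks the suffix that its header carries. The marked controls and the N1OE libraries were alike in a property of the files: genes with 1 read were 4.17 to 5.91 times as many as genes with 2 reads in the marked controls and 4.18 to 6.82 times in N1OE. In the unmarked controls and the N1KO libraries these ratios were 1.08 to 1.50 and 1.25 to 1.40. What this ratio reflects was not tested. Each re-isolated comparison with controls is therefore given against all 9 controls and against each set. In culture all 4 controls and N1OE replicate 1 carry the suffix, and N1OE replicates 2 and 3 do not. Mark and genotype therefore largely coincide there, and their effects were not separated. Control replicate 1 and N1OE replicate 1 also share a form of name that the other cultured libraries lack.

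Library totals ran from 11637817 to 29154176 reads, so that 1 read stands for 0.0343 to 0.0859 CPM. Cultured N1OE replicates 2 and 3 were much closer to each other (chi-square per degree of freedom 3.31) than either was to replicate 1 (29.7 and 35.0), though further apart than sampling noise, and were counted as separate libraries. Notch1 itself was at 61.3 to 105 CPM in cultured controls and 297 to 370 CPM in cultured N1OE. Among re-isolated cells it was at 14.9 to 88.9 CPM in marked controls, 136 to 174 CPM in unmarked controls, 98.1 to 257 CPM in N1OE and 15.6 to 52.6 CPM in N1KO. The N1KO range lay inside that of the marked controls, and which part of the gene was deleted is not stated in the labels. Pax7, the defining satellite cell factor, was at 0 to 0.178 CPM in cultured controls and 0.0508 to 0.891 CPM in cultured N1OE, but at 11.5 to 154 CPM over the re-isolated libraries. In these bulk samples fewer cells of a type and less RNA per cell cannot be told apart.

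Matricellular proteins are secreted into the extracellular matrix, where they tune how cells read integrins and growth factors rather than bear load. TGF-beta is stored in that matrix as a latent complex tethered by LTBP proteins, is released by integrins and by thrombospondin-1, and through SMAD factors raises many matrix genes, among them Ccn2, Tgfbi, Thbs1 and Tnc. Ccn1 and Ccn2 are also standard targets of YAP and TAZ, which bind DNA through TEAD factors, and in muscle such genes are strongly expressed by fibro-adipogenic progenitors and tendon cells as well as by activated muscle stem cells.

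Promoter windows of 250 bases upstream of the RefSeq start were at hand for 5 of the 8 genes (Ccn1, Tgfbi, Thbs2, Tnc and Ltbp1, RefSeq, GRCm38.p6). The windows of 3 genes are shown because Tgfbi and Thbs2 went up and down together over the re-isolated groups while Ccn1 did not. The Ccn1 window is chr3:145649986-145650235 (minus strand), that of Tgfbi is chr13:56609336-56609522 (plus strand, 187 bases, since the bases after the GENCODE start were left off), and that of Thbs2 is chr17:14694263-14694512 (minus strand). All run 5′ to 3′ in the direction of transcription, and capitals mark every match to a motif searched.
Ccn1: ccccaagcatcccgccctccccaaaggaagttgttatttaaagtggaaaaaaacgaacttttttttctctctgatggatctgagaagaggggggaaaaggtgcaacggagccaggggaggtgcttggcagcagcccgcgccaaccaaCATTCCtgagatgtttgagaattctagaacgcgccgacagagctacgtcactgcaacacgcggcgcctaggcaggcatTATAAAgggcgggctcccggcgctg
Tgfbi: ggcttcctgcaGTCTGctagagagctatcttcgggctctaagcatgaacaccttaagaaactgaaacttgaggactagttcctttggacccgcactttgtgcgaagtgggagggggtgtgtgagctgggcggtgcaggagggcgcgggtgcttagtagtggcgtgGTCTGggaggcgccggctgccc
Thbs2: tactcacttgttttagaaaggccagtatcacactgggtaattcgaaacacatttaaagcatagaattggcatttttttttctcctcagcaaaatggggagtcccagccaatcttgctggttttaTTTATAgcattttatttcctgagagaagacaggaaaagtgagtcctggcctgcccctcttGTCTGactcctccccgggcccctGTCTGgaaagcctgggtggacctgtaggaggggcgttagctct
Motifs were searched on both strands. For TEAD the letters were GGAATG. RBPJ, the DNA-binding partner of NICD1, was searched as GTGGGAA. The SMAD letters were CAGAC. AP-1 was searched as TGANTCA. The TATA box was searched as TATAAA. The Ccn1 window holds CATTCC, the TEAD letters on the other strand, 103 bases before the start and TATAAA 25 bases before it. In the Tgfbi window GTCTG, the SMAD letters on the other strand, stands 239 and 85 bases before the start. The Thbs2 window holds GTCTG 66 and 43 bases before the start and TTTATA 126 bases before it. None of the 3 windows shown holds the RBPJ letters. Among the windows not shown, a second one of Tnc holds them, 82 bases before its own start. In the RefSeq set 32851 promoter windows have this length, and 12.6% of them hold the TEAD letters, 5.42% the RBPJ letters, 42.2% the SMAD letters, 6.75% the AP-1 letters and 12.4% the letters of the last motif, so these matches describe the windows and mark no site.

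**Figure D1:**
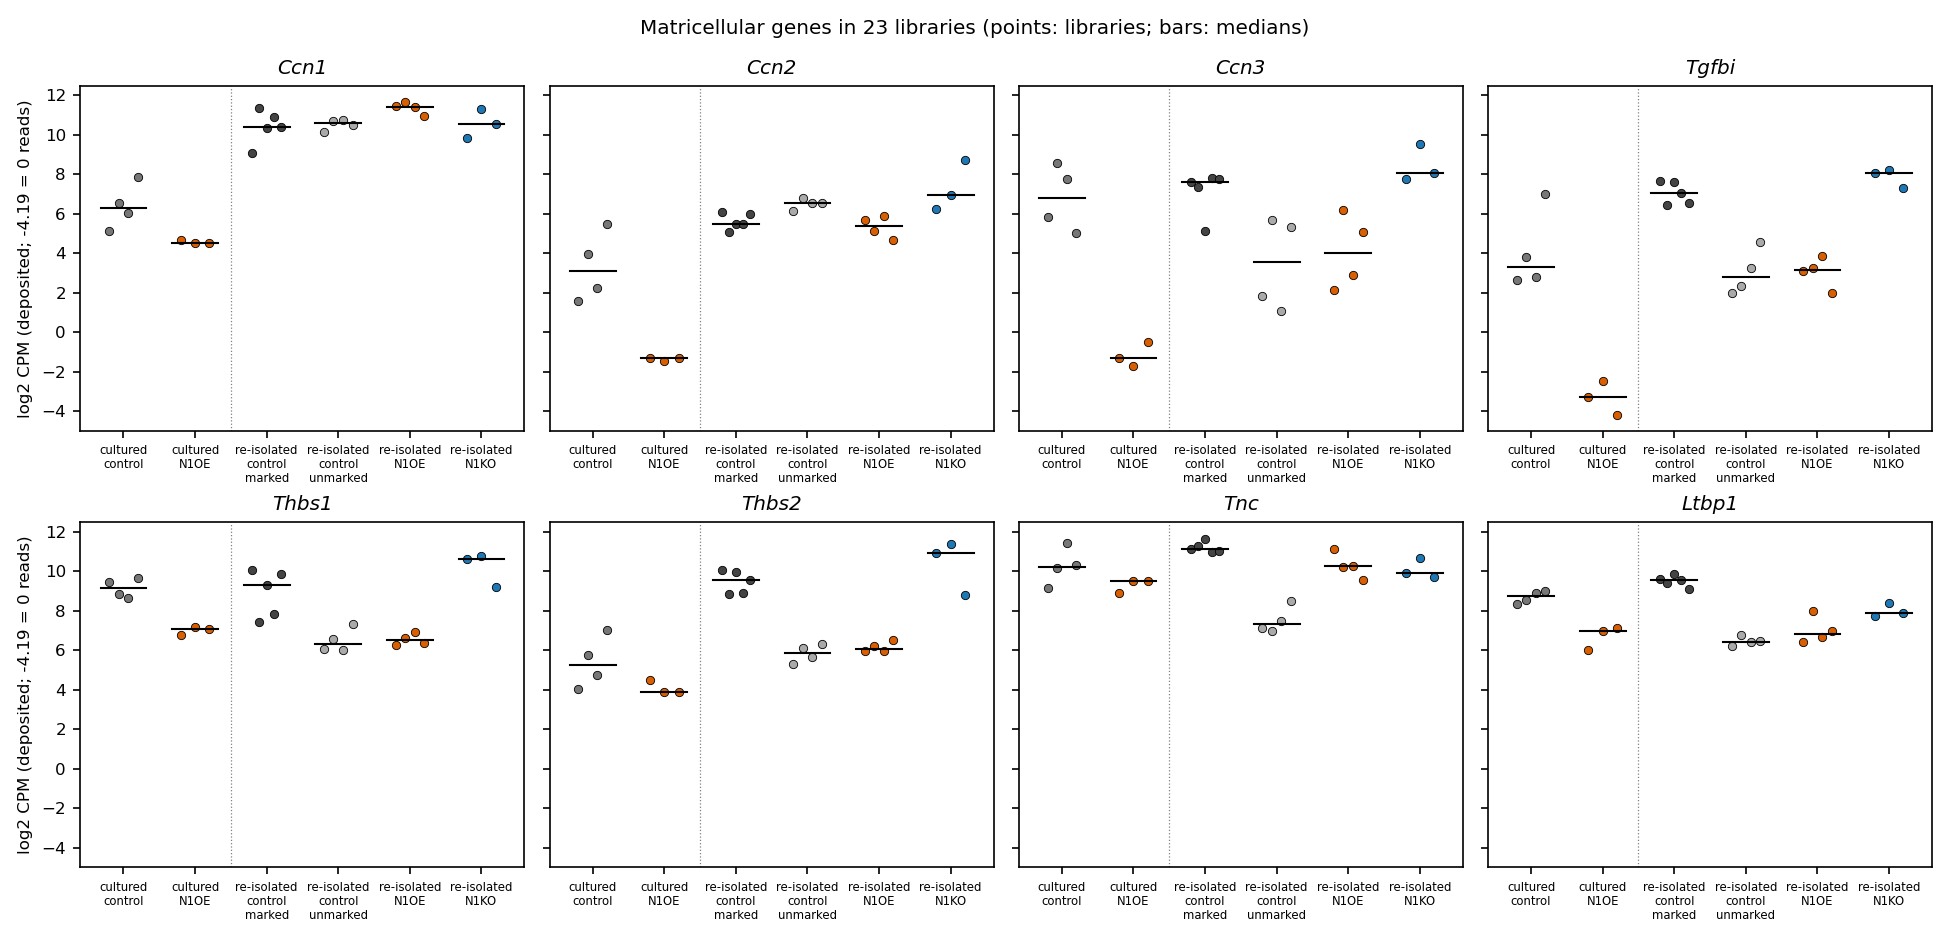
Level of each of the 8 genes in log2 CPM (vertical axis) in every library (points) of 6 groups, with short bars at the group medians. A dotted line parts the cultured from the re-isolated libraries, whose library kits differ. Cultured N1OE libraries lie at the bottom for Ccn2, Ccn3 and Tgfbi, and unmarked controls and N1OE lie together below marked controls and N1KO for Tgfbi, Thbs1 and Thbs2.

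In cultured progenitors all 8 genes had a lower mean in N1OE than in control, and for 6 of 8 every N1OE library lay below every control library. The same held for 13.7% of all 12314 genes tested. These values chose the genes, so they are given as a description, with no test. The median log2 difference of the 8 genes was -2.07, against 0.07 over all genes.

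Tgfbi (transforming growth factor beta induced, a secreted integrin-binding protein) was at 6.30, 14.1, 6.96 and 127 CPM in the 4 cultured controls and at 0.0495, 0.126 and 0 CPM in the 3 N1OE libraries. The N1OE values are 3 reads over all 3 libraries against 2645 reads in controls, a depth-adjusted ratio of 652 with a 95% counting interval of 223 to 3165. Of these control reads 2142 lie in replicate 4, and the ratio was 159.7 without that library, 1399.5 without N1OE replicate 2 and 422 without N1OE replicate 3. The counting interval leaves out this spread between libraries, and the ratio without control replicate 4 lies below it. Ccn3 (also known as Nov, a CCN protein tied to Notch signalling and to restraint of proliferation) was at 56.1, 383, 219.7 and 32.4 CPM in controls and at 0.347, 0.252 and 0.660 CPM in N1OE, a mean level 412 times lower (245 times without control replicate 2). Both genes were thus near the limit of detection in cultured N1OE, while each of the 4 controls held them well above it, with Tgfbi highest in replicate 4 and Ccn3 highest in replicate 2.

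Ccn2 (connective tissue growth factor, the classical TGF-beta and YAP target) was at 2.99, 15.4, 4.64 and 44.8 CPM in cultured controls and at 0.347, 0.315 and 0.355 CPM in N1OE, a mean 50.1 times lower (22.6 times without control replicate 4). The 3 N1OE libraries were nearly equal, while the controls spread widely, with replicate 4 highest. Ccn1 (Cyr61, an immediate early CCN protein that binds integrins) was at 35.1, 92.5, 64.7 and 235 CPM in controls and 25.5, 23.1 and 23.003 CPM in N1OE, a mean 4.47 times lower (2.69 times without control replicate 4).

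Thbs1 and Ltbp1, which act on latent TGF-beta, were also lower. Thbs1 (thrombospondin-1, an activator of latent TGF-beta) was at 706, 453, 406 and 815 CPM in controls and 108, 143 and 133 CPM in N1OE. Ltbp1 (which anchors latent TGF-beta to fibrillin fibres) was at 324, 375, 478 and 511 CPM in controls and 65.4, 128 and 138 CPM in N1OE. Neither gene's groups overlapped, and the mean levels were 4.64 and 3.82 times lower in N1OE. The groups did overlap for Thbs2 (thrombospondin-2, a clearance and anti-angiogenic regulator), at 16.5, 54.0, 26.8 and 131 CPM in controls and 22.6, 14.5 and 15.0 CPM in N1OE. They also overlapped for Tnc (tenascin-C, a glycoprotein of remodelling and regenerating tissue), at 576, 1145, 2725 and 1252 CPM in controls and 473, 725 and 716 CPM in N1OE. For Thbs2 and Tnc the overlap came from control replicate 1, the lowest control for each. That library was also the lowest control for Ccn1, Ccn2, Tgfbi and Ltbp1, and control replicate 4 was the highest for 6 genes, with Ccn3 and Tnc as the exceptions.

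Fibro-adipogenic markers were also lower as a sum. The summed level of 8 such markers was 43.7 to 275 CPM in cultured controls and 10.8 to 14.5 CPM in cultured N1OE. Lum and Mfap5 were at 0 in cultured N1OE. Of the 8 markers 3 passed the filter on low values, and 1 of these fell. Among controls the sum was lowest in replicate 1 and highest in replicate 3, with 146 CPM in replicate 4. The part of these markers in the result was not tested. Markers of differentiating muscle also differed, with summed levels of 812 to 7083 CPM in controls and 237 to 964 CPM in N1OE. Of these 8 markers 6 were called lower and none higher, against 6.03% of all genes called lower, with a median log2 difference of -3.44. Endothelial markers (7 genes) summed to 9.23 to 10.98 CPM in controls and 2.71 to 4.16 CPM in N1OE. Schwann and glial markers (5 genes) summed to 23.9 to 35.6 CPM and 8.42 to 9.24 CPM. Pericyte and smooth muscle markers (7 genes) went the other way, with 145 to 275 CPM in controls and 589 to 913 CPM in N1OE. The part of these lists was not tested either.

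In re-isolated cells none of the 8 genes passed the test between N1OE and all 9 controls, in which 7.06% of all genes were called (limma, Benjamini-Hochberg adjusted p under 0.05 over all 14155 genes). Unadjusted p-values under 0.05 were found for 3 genes, in both directions (Ccn1 at 0.89, Tgfbi at -2.22 and Thbs2 at -1.69). The share of all genes at that unadjusted level was not counted, here or for N1KO. Limma-voom on the recovered reads called 0. None of the 8 genes passed between N1KO and all 9 controls either, where 0.657% of all genes were called. There 5 genes were at an unadjusted p under 0.05 and 0 were called by limma-voom. With array weights 1 gene, Thbs1, was called there (log2 fold change 2.37 ± 0.71 (SE) and adjusted p = 0.143 in the equal-weight fit, adjusted p = 0.0308 with array weights). The 9 controls were themselves split. Between the marked and the unmarked controls 6 of the 8 genes were higher in the marked set, against 10.5% of all genes called higher. These were Ccn3, Tgfbi, Thbs1, Thbs2, Tnc and Ltbp1.

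Against the marked controls, which share the N1OE libraries' read ratio, 5 of the 8 genes fell in N1OE (Ccn3, Tgfbi, Thbs1, Thbs2 and Ltbp1) and none rose. The share of all genes called lower in that comparison was 5.93%. For 4 genes no N1OE library reached the lowest marked control, as for 4.89% of all genes. The median log2 fold change of the 8 was -2.43, against 0.06 over all genes. In N1KO 6 of the 8 genes (the same 5 and Tnc) rose against the unmarked controls, which share the N1KO libraries' read ratio, and none fell. The share of all genes called higher there was 3.76%. These 6 are the genes that were higher in marked than in unmarked controls, so the fall and the rise rest on different baselines. For these 6 every N1KO library lay above every unmarked control, as for 12.1% of all genes. The median there was 3.13, against 0.01 over all genes. Between N1OE and N1KO directly 4 of the 8 were lower in N1OE (Ccn2, Tgfbi, Thbs1 and Thbs2), against 4.43% of all genes called lower. For 5 genes (these 4 and Ccn3) every N1OE library lay below every N1KO library, as for 12.1% of all genes. With N1KO replicate 1 or replicate 2 left out only 1 of these 4, Ccn2, was still called.

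The reverse pairings gave fewer calls. The median log2 fold change of the 8 genes was 0.43 for N1OE against the unmarked controls, against 0.07 over all genes. For N1KO against the marked controls it was 0.84, against 0.03 over all genes. Against the unmarked controls N1OE had Tnc higher and Ccn2 lower, with 9.4% of all genes called higher and 9.63% lower. Against the marked controls N1KO had Ccn2 higher and Ltbp1 lower, with 3.84% of all genes called higher and 2.06% lower. These comparisons share control and treated libraries with those above, so the sets of values are given side by side and were not tested against each other. If control replicate 7 is placed by its description, among the unmarked controls, N1OE against the marked controls still has 5 called genes, N1KO against the unmarked controls has 4, and the other comparisons that use a control set have 0, the difference between the 2 control sets included.

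**Figure D2:**
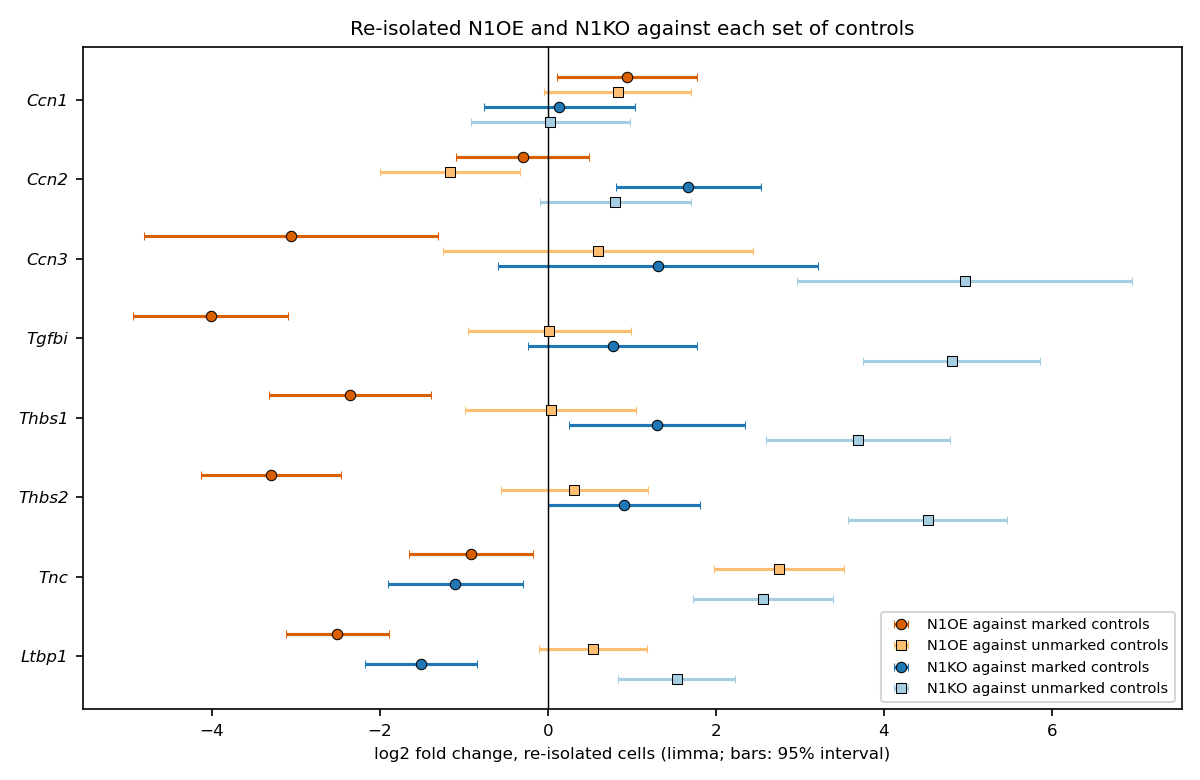
Log2 fold change with its 95% interval (horizontal axis) of each gene in re-isolated N1OE and N1KO, against the marked and the unmarked controls. For Tgfbi the N1OE value is -4.01 against marked and 0.02 against unmarked controls, and the N1KO value is 0.77 and 4.81.

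Tgfbi showed the pattern most plainly. It was at 203, 87.8, 195, 134 and 92.9 CPM in the 5 marked controls and at 3.88, 5.01, 9.47 and 23.7 CPM in the 4 unmarked controls. N1OE libraries held 8.40, 9.64, 14.3 and 3.99 CPM, and N1KO libraries 263, 294 and 156 CPM. All N1OE libraries were below all marked controls and inside the range of the unmarked ones, and all N1KO libraries were above all unmarked controls. Against the marked controls Tgfbi fell 16.1-fold in N1OE (log2 fold change -4.01 ± 0.45, SE, limma adjusted p = 1.96e-06), while against the unmarked controls the difference was 0.02 with a 95% interval of -0.95 to 0.99. In N1KO it rose 28.0-fold against the unmarked controls (4.81 ± 0.51, limma adjusted p = 7.61e-06) and was at 0.77 ± 0.49 against the marked (adjusted p = 0.364). Tgfbi was 27.6-fold lower in N1OE than in N1KO (-4.79 ± 1.14, limma adjusted p = 0.0134), with adjusted p = 0.0596 and 0.0610 without N1KO replicate 1 and replicate 2.

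The thrombospondins followed the same order. Thbs2 was at 1063, 453, 979.6, 479 and 763 CPM in the marked controls, 39.7, 68.6, 50.0 and 79.9 CPM in the unmarked controls, 62.3, 73.3, 61.6 and 93.2 CPM in N1OE and 1917, 2672 and 451 CPM in N1KO. The highest N1OE or unmarked control library held 93.2 CPM of it, and the lowest marked control or N1KO library 451 CPM. Against the marked controls Thbs2 fell 9.83-fold in N1OE (-3.30 ± 0.40, limma adjusted p = 5.29e-06), and against the unmarked controls it was at 0.32 (95% interval -0.56 to 1.19). In N1KO it rose 22.99-fold against the unmarked controls (4.52 ± 0.46, limma adjusted p = 7.61e-06). Against the marked controls the N1KO value was 0.91 ± 0.44 (adjusted p = 0.221), and 0.0159 without N1KO replicate 3, the lowest of the group.

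Thbs1 was at 1074, 169.6, 633, 228 and 915 CPM in the marked controls and 66.7, 95.7, 64.8 and 163 CPM in the unmarked controls. It was at 75.6, 99.4, 121 and 81.8 CPM in N1OE and at 1584, 1722 and 592 CPM in N1KO. Marked controls 4 and 8 stood well below the other 3, yet above every N1OE library. In N1OE Thbs1 fell 5.11-fold against the marked controls (-2.35 ± 0.47, limma adjusted p = 0.00119), with 0.03 (95% interval -0.98 to 1.05) against the unmarked. In N1KO it rose 12.9-fold against the unmarked controls (3.69 ± 0.53, limma adjusted p = 0.000183) and was at 1.31 ± 0.51 against the marked (adjusted p = 0.126). Between N1OE and N1KO the log2 fold changes were -3.66 ± 0.82 for Thbs1 (limma adjusted p = 0.00847) and -4.21 ± 1.03 for Thbs2 (limma adjusted p = 0.0153). Without N1KO replicate 1 or replicate 2 the adjusted p rose to 0.0503 and 0.0505 for Thbs1 and to 0.0777 and 0.0884 for Thbs2.

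Ltbp1, the carrier of latent TGF-beta, differed from these 3 in that N1KO did not reach the marked controls. It was at 772, 688, 935, 753 and 554 CPM in the marked controls, 75.3, 107, 85.0 and 88.6 CPM in the unmarked controls, 86.5, 251, 101 and 124 CPM in N1OE and 209, 340.5 and 237 CPM in N1KO. The N1KO libraries lay between the 2 control sets without overlap with either. In N1OE Ltbp1 fell 5.68-fold against the marked controls (-2.50 ± 0.30, limma adjusted p = 3.97e-06) and was at 0.54 ± 0.31 against the unmarked (adjusted p = 0.231). In N1KO it rose 2.90-fold against the unmarked controls (1.54 ± 0.34, limma adjusted p = 0.00706, but 0.0695 without N1KO replicate 2). It fell 2.85-fold against the marked controls (-1.51 ± 0.32, limma adjusted p = 0.00835, but 0.0506 without N1KO replicate 1). With the control sets by description neither call was made (0.86, adjusted p = 0.601, against unmarked and -1.42, adjusted p = 0.281, against marked controls), while the signs of the 2 values stayed opposite.

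Tnc rose in both N1OE and N1KO against the unmarked controls. It was at 2239, 2467, 3142, 1987 and 2049 CPM in the marked controls and at 142, 125, 181 and 362 CPM in the unmarked controls. N1OE libraries held 2191, 1196, 1228 and 743 CPM and N1KO libraries 966, 1601 and 846 CPM. Every N1OE and every N1KO library was above every unmarked control. In N1OE Tnc rose 6.72-fold against the unmarked controls (2.75 ± 0.37, limma adjusted p = 4.53e-05) and was at -0.91 ± 0.35 against the marked (adjusted p = 0.0943, and 0.0336 without N1OE replicate 1). In N1KO it rose 5.92-fold against the unmarked controls (2.56 ± 0.40, limma adjusted p = 0.000431) and was at -1.10 ± 0.39 against the marked (adjusted p = 0.0920). With the control sets by description neither rise passed (adjusted p = 0.0650 in N1OE and 0.253 in N1KO). N1OE and N1KO differed by 0.19, with a 95% interval of -1.93 to 2.30.

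The 3 CCN genes did not move together. Ccn3 was at 196, 165, 35.1, 221 and 215 CPM in the marked controls, 3.54, 51.8, 2.05 and 39.7 CPM in the unmarked controls, 4.42, 72.0, 7.48 and 33.5 CPM in N1OE and 213, 748 and 265 CPM in N1KO. Its values spread over more than 10-fold within the unmarked controls and within N1OE, and control replicate 7 lay among the unmarked levels. Ccn3 rose 31.2-fold in N1KO against the unmarked controls (4.96 ± 0.96, limma adjusted p = 0.00282). It fell 8.30-fold in N1OE against the marked controls (-3.05 ± 0.85, limma adjusted p = 0.0165), with adjusted p = 0.0873 and 0.0822 without N1OE replicate 1 and replicate 3. That call was also lost with array weights (limma adjusted p = 0.0993) and with no filter on low values (0.0530). Between N1OE and N1KO its value of -4.37 ± 1.37 did not pass (limma adjusted p = 0.0576), although no library overlapped. It passed with log2(CPM + 1) (limma adjusted p = 0.0413), log2(CPM + 5) (0.0290), array weights (0.0258) and in a fit of the 2 groups alone (6.57e-05).

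Ccn2 was at 68.5, 33.9, 45.4, 45.4 and 64.0 CPM in the marked controls, 71.2, 110.1, 94.2 and 92.2 CPM in the unmarked controls, 51.1, 34.6, 58.9 and 25.9 CPM in N1OE and 74.5, 126 and 429 CPM in N1KO. Here the order of the control sets was turned round, with every unmarked control above every marked one (-0.87 ± 0.38, adjusted p = 0.106). In N1KO Ccn2 rose 3.19-fold against the marked controls (1.67 ± 0.42, limma adjusted p = 0.0203, but 0.167 without N1KO replicate 3). In N1OE it was 3.92-fold lower than in N1KO (-1.97 ± 0.50, limma adjusted p = 0.0190), with adjusted p = 0.0509, 0.0562 and 0.120 without N1OE replicate 2, N1OE replicate 4 and N1KO replicate 3. The drop in N1OE against the unmarked controls (-1.16 ± 0.40, limma adjusted p = 0.0462) was lost in 7 of the 8 fits that left out a library, with adjusted p = 0.0507 to 0.124 in these.

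Ccn1 passed the test in none of the 8 comparisons among re-isolated libraries. It was at 534, 2641, 1316, 1877 and 1354 CPM in the marked controls, 1114, 1670.5, 1731 and 1446 CPM in the unmarked controls, 2759.8, 3257, 2670.2 and 1966 CPM in N1OE and 896, 2554 and 1482 CPM in N1KO. All N1OE libraries were above all unmarked controls (0.84 ± 0.42, adjusted p = 0.171), and 1 marked control lay within the N1OE range. Against the marked controls the N1OE value was 0.94 ± 0.40 (limma adjusted p = 0.130, and 0.0439 without control replicate 4). For N1KO the 95% intervals ran from -0.76 to 1.04 against the marked and from -0.91 to 0.98 against the unmarked controls.

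Levels in culture and after re-isolation stand side by side without a test, since the cultured and re-isolated libraries were made with different kits and the effects of setting and kit cannot be told apart. Ccn1 stood highest in the re-isolated libraries, where the lowest value of 534 CPM exceeded the highest cultured value of 235 CPM. Other immediate early genes, a class to which Ccn1 belongs, were also higher there as a sum. The list, chosen after its values were seen, was Fos, Fosb, Jun, Junb, Egr1, Atf3 and Ier2. Its summed level was 167 to 538 CPM in the cultured and 5763 to 33374 CPM in the re-isolated libraries. Within culture the sums overlapped, at 167 to 538 CPM in controls and 190 to 284 CPM in N1OE, whereas Ccn1 was lower in every N1OE library. The part of the 7 genes in the level of Ccn1 was not tested. None of these 7 genes was called in a re-isolated comparison with N1OE or N1KO, and 2 of 7 were lower in marked than in unmarked controls (12.5% of all genes).

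Ranked by median CPM over the 6 groups, cultured N1OE was the lowest group for Ccn1, Ccn2, Ccn3, Tgfbi and Thbs2, and the unmarked controls were the lowest for Thbs1, Tnc and Ltbp1. N1KO was the highest for Ccn2, Ccn3, Tgfbi, Thbs1 and Thbs2, N1OE for Ccn1 and the marked controls for Tnc and Ltbp1. The libraries of N1KO overlapped those of the next group down for each of these 5 genes. N1OE and the unmarked controls were neighbours in that order, with overlapping libraries, for Ccn3, Tgfbi, Thbs1, Thbs2 and Ltbp1. Per kilobase of exon the means of the 8 genes in marked controls ran from 18.0 CPM per kb for Ccn2 to 765 CPM per kb for Ccn1, with Tnc at 306 and Thbs2 at 107 CPM per kb. In N1OE Ccn1 stood at 1319 CPM per kb and Tgfbi at 2.41 CPM per kb, and in N1KO these genes were at 814 and 63.0 CPM per kb.

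Fibro-adipogenic markers, as a sum, varied with the same groups of libraries. The summed level of 8 fibro-adipogenic markers was 1954 to 10042 CPM in the marked controls, 207 to 1263 CPM in the unmarked controls, 618 to 1452 CPM in N1OE and 5527 to 15593 CPM in N1KO. None was at 0 in a whole re-isolated group. Of the 8 markers 4 fell in N1OE against the marked controls and 3 against N1KO, 5 rose in N1KO against the unmarked controls, and 3 were higher in marked than in unmarked controls. The shares of all genes called in these directions were 5.93%, 4.43%, 3.76% and 10.5%. Dcn, the fibroblast proteoglycan decorin, was at 640.2 to 7367 CPM in marked controls, 19.9 to 227 CPM in unmarked controls, 127 to 233 CPM in N1OE and 2971 to 8338 CPM in N1KO.

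Tenocyte and chondrocyte markers (8 genes) summed to 686 to 2055 CPM in the marked controls, 883 to 1178 CPM in the unmarked controls, 266 to 860 CPM in N1OE and 1214 to 5615 CPM in N1KO. Between marked and unmarked controls these sums overlapped, with 3 of 8 markers higher (10.5% of all genes) and 1 lower (12.5%) in the marked set. Compared with N1KO 4 of 8 were lower in N1OE (4.43% of all genes). In N1KO 3 of 8 rose against the marked (3.84%) and 3 against the unmarked controls (3.76%). Tnmd, the tendon membrane protein tenomodulin and 1 of the 8, was at 229 to 1123 CPM in N1KO and at 0 to 0.519 CPM in N1OE. Macrophage markers (7 genes) summed to 69.0 to 575 CPM in marked and 38.2 to 129 CPM in unmarked controls, 22.8 to 121 CPM in N1OE and 156 to 534 CPM in N1KO. The satellite cell markers (10 genes, none at 0 in a whole group) ran the other way, with 1460 to 2238 CPM in marked and 2319 to 2996 CPM in unmarked controls, 2604 to 3846 CPM in N1OE and 1280 to 2425 CPM in N1KO. Differentiating muscle markers (8 genes) summed to 1154 to 2699 CPM in marked and 3122 to 5842 CPM in unmarked controls, with 5 of 8 lower in the marked set (12.5% of all genes). They summed to 1706 to 3360.1 CPM in N1OE and 733 to 3495 CPM in N1KO. Endothelial markers (7 genes) summed to 6.61 to 39.1 CPM in the 9 controls, 42.4 to 89.7 CPM in N1OE and 43.7 to 131 CPM in N1KO. Of these 2 of 7 rose in N1OE (3.78% of all genes) and 3 of 7 in N1KO (0.466%) against all controls. Pericyte and smooth muscle markers (7 genes) summed to 173 to 237 CPM in marked and 266 to 416 CPM in unmarked controls, 376 to 822 CPM in N1OE and 233 to 383 CPM in N1KO. The part of these other cell types in the differences of Tgfbi, Thbs1, Thbs2, Ccn3, Tnc and Ltbp1 was not tested.

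**Figure D3:**
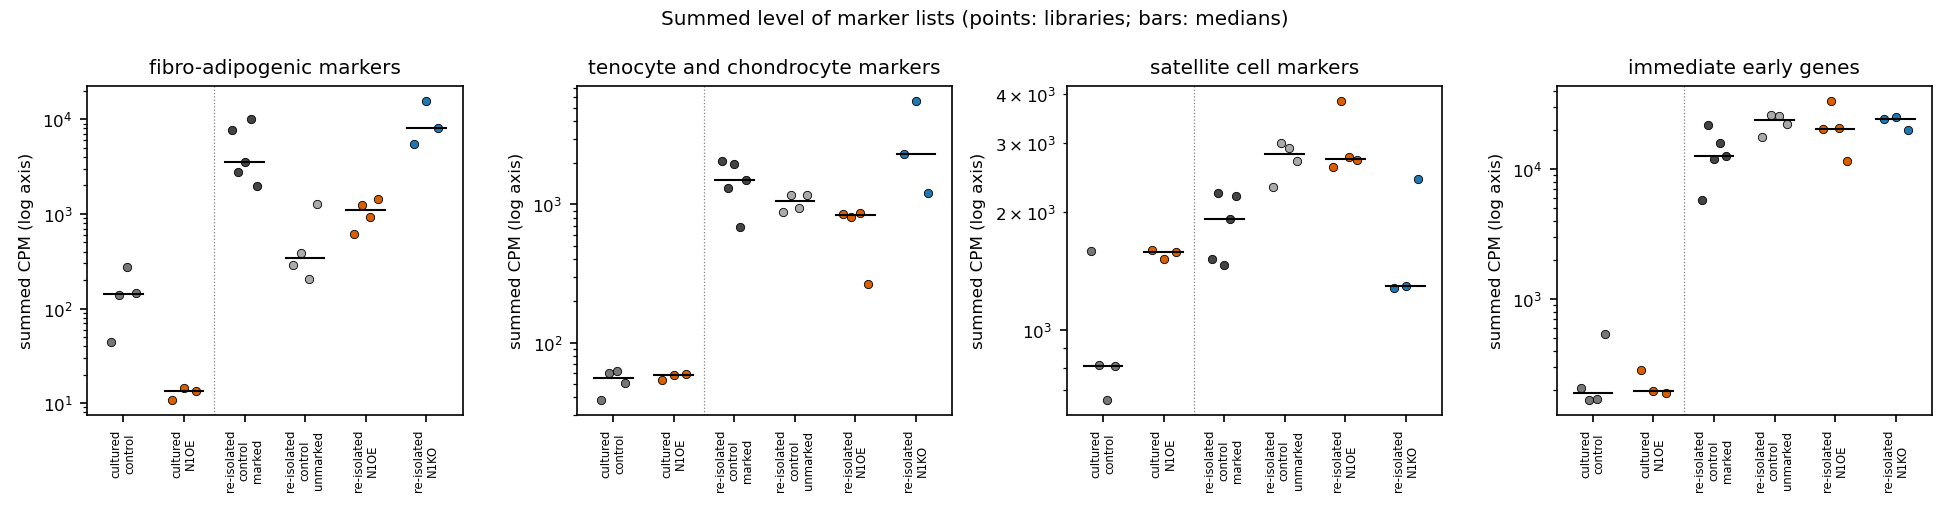
Summed CPM (log axis) of the fibro-adipogenic, tenocyte and chondrocyte, satellite cell and immediate early gene lists in every library of the 6 groups, with bars at the medians. The fibro-adipogenic sums of N1KO (5527 to 15593 CPM) lie above those of N1OE (618 to 1452 CPM), and the satellite cell sums of marked controls lie below those of unmarked controls.

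The wider pathway was followed in 12 lists of 118 genes: relatives of the 8 genes, TGF-beta ligands, receptors, SMADs and response genes, YAP/TAZ-TEAD factors and targets, matricellular receptors and other matricellular genes. In culture 6 rose and 13 fell in N1OE of 109 tested, with 4.73% of all genes called higher and 6.03% lower. The cultured calls changed with single libraries. Without N1OE replicate 1, 2 or 3 the calls over all genes fell from 1325 to 354, 164 and 158, and without control replicate 2 to 584. In the lists 1 rose and 3 fell without N1OE replicate 1, none rose and 1 fell without replicate 2 and likewise without replicate 3, and 2 rose and 2 fell without control replicate 2. Without control replicate 1 and N1OE replicate 1, which share a form of name, 196 genes were called. In that fit 1 listed gene rose and 2 fell. After re-isolation 11 rose (7.53% of all genes called higher) and 27 fell in N1OE against the marked controls and 17 rose and 15 fell against the unmarked controls, of 117 tested. In N1KO 8 rose and 3 fell against the marked controls, and 18 rose and 2 fell (2.71% of all genes called lower) against the unmarked controls. In marked against unmarked controls 31 were higher and 16 lower (12.5% of all genes called lower). Against all 9 controls 3 rose and 13 fell in N1OE (3.78% of all genes called higher, 3.29% lower), and 3 rose and none fell in N1KO (0.466% of all genes called higher).

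Several listed genes fell in N1OE against both control sets. Ccn5, a CCN protein without the C-terminal domain, fell against all controls (-1.78 ± 0.31, limma adjusted p = 0.00116), with 42.2 to 111 CPM in N1OE and 178 to 401 CPM in the 9 controls. Fbln1, the matrix glycoprotein fibulin-1, fell from 74.2 to 194 CPM in controls to 3.95 to 32.4 CPM in N1OE (-2.95 ± 0.39, limma adjusted p = 9.55e-05), against both sets alike (-3.03 against marked and -2.84 against unmarked). Igfbp3, an IGF-binding protein and YAP target, also fell against both sets (-1.80 ± 0.33 over all controls, limma adjusted p = 0.00209). These 3 genes therefore did not depend on the control set for their direction, in contrast to Tgfbi, Thbs1 and Thbs2, whose N1OE values lay near 0 against the unmarked controls. In N1OE Ccn4 fell against the marked controls (-1.03 ± 0.26, limma adjusted p = 0.00972), and was at -0.49 against the unmarked (adjusted p = 0.223) and -0.79 against all 9 controls (adjusted p = 0.0716).

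The other thrombospondins rose in N1KO against the unmarked controls, as did 2 of 4 tenascin and periostin relatives and 2 of 5 LTBP relatives and fibrillins. All 3 listed relatives of Thbs1 and Thbs2 rose there, among them Thbs4, found in tendon and muscle matrix (log2 fold change 6.23 ± 0.75, limma adjusted p = 2.85e-05), and Thbs3 (1.94 ± 0.43, limma adjusted p = 0.00748, but 0.0958 without N1KO replicate 2). Postn, periostin, a fasciclin-domain relative of Tgfbi, rose 3.07 ± 0.48 (limma adjusted p = 0.000407) in N1KO against the unmarked controls and fell by 3.14 on the log2 scale in N1OE against the marked controls (limma adjusted p = 1.98e-05). Tnn, tenascin-N, passed against all 9 controls in N1KO, with 18.9 to 326 CPM there and 1.13 to 5.97 CPM in controls (5.04 ± 0.67, limma adjusted p = 0.00168). Fbn2, fibrillin-2, and Ltbp2 rose in N1OE (2.95 and 1.42 on the log2 scale) and in N1KO against the unmarked controls, as Tnc did. The call of Ltbp2 in N1KO was lost without control replicate 2 or 3 or N1KO replicate 1 or 2 (adjusted p = 0.0562 to 0.101). Fbn2 was at 1.59 to 17.1 CPM in those controls and at 22.1 to 45.9 CPM in N1KO.

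Among ligands and receptors Inhba, the activin A subunit, fell in N1OE against all controls (-2.37 ± 0.58, limma adjusted p = 0.0160, but 0.0530 and 0.0627 without N1OE replicate 2 and replicate 4), with 8.71 to 16.9 CPM in N1OE and 21.5 to 254 CPM in controls. Tgfbr3, the co-receptor betaglycan, rose (2.17 ± 0.41, limma adjusted p = 0.00277), with 191 to 764 CPM in N1OE and 50.8 to 201 CPM in controls. Tgfbr2, the TGF-beta type II receptor, fell in N1OE against the marked controls (-1.34 ± 0.31, limma adjusted p = 0.00474), and its difference from the unmarked controls did not pass. Lrrc32, which displays latent TGF-beta on the cell surface, rose in cultured N1OE to 109 to 175 CPM from 1.31 to 15.1 CPM (4.75 ± 0.72, limma adjusted p = 0.0117, but 0.0532 to 0.0633 without any 1 of the N1OE libraries). After re-isolation it was lower in N1OE than in N1KO (-2.37 ± 0.59, limma adjusted p = 0.0171, but 0.0585 and 0.0937 without N1OE replicate 2 and N1KO replicate 2). Of the 13 SMADs and modulators none passed in culture, in N1OE against all controls or in N1KO against all controls. Tgfb1i1 fell in N1OE against the marked controls (-1.09 ± 0.28, limma adjusted p = 0.0114) and Smurf1, a ubiquitin ligase of the pathway, rose against the unmarked controls (1.30 ± 0.35, limma adjusted p = 0.0133).

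Of 17 TGF-beta response genes 2 rose and 8 fell in N1OE against the marked controls, 3 rose and 5 fell against the unmarked controls, and 5 rose and none fell in N1KO against the unmarked controls. The shares of all genes called higher and lower in these comparisons were 7.53% and 5.93%, 9.4% and 9.63%, and 3.76% and 2.71%. The collagen genes Col1a1 and Col1a2 were called in most of these comparisons. Col1a1 fell in N1OE against all 9 controls (-2.32 ± 0.53, limma adjusted p = 0.00982, but 0.0546 without N1OE replicate 4), from 1804 to 8145 CPM to 385 to 1854 CPM. Col1a2 was at 8.94 to 28.6 CPM in N1OE, 7.73 to 761 CPM in unmarked controls, 139.8 to 973 CPM in marked controls and 2426 to 10797 CPM in N1KO (5.47 ± 1.16 in N1KO against all controls, limma adjusted p = 0.0356, but 0.127 and 0.246 without N1KO replicate 1 and replicate 2). The YAP/TAZ-TEAD targets, the other class to which Ccn1 and Ccn2 belong, gave 1 rise and 5 falls of 22 in N1OE against each control set. Shares of all genes were 7.53% higher and 5.93% lower against the marked and 9.4% higher and 9.63% lower against the unmarked controls. In N1KO 1 fell and none rose against the unmarked controls, and the median over these 22 targets was 0.35. In culture 3 of 21 tested YAP/TAZ-TEAD targets fell and none rose, and of 13 YAP/TAZ-TEAD factors 1 rose and 4 fell, among them Stk4, the kinase MST1 (-0.76 ± 0.11, limma adjusted p = 0.0101), and the cofactor Vgll2 (-1.95 ± 0.44, limma adjusted p = 0.0347). Neither passed without N1OE replicate 2 (adjusted p = 0.0551 and 0.148) or replicate 3 (0.0657 and 0.148), and Vgll2 also did not without N1OE replicate 1, control replicate 1 or control replicate 2 (0.0644, 0.0581 and 0.0553).

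Of 12 receptors and partners of matricellular proteins 1 fell in culture (against 6.03% of all genes), 1 fell in re-isolated N1OE against all controls (against 3.29% of all genes), and none was called in N1KO against all controls. For each fall, 1 of 12 is near the share of all genes. Itgb3, the beta chain of the vitronectin receptor, fell in N1OE against all controls (-2.91 ± 0.74, limma adjusted p = 0.0200, but 0.0846 and 0.0752 without N1OE replicate 1 and replicate 4), with 0.137 to 2.23 CPM in N1OE and 0.424 to 13.8 CPM in controls. Itga8, an alpha chain that binds tenascin-C, fell in cultured N1OE (-2.25 ± 0.41, limma adjusted p = 0.0189, but 0.0527 to 0.0965 without control replicate 2 or any N1OE library) and rose in re-isolated N1OE against the unmarked controls (1.93 ± 0.40, limma adjusted p = 0.00229), the comparison in which Tnc rose. Myof, myoferlin, a YAP/TAZ-TEAD target, fell against the marked controls in N1OE (-2.47 ± 0.33, limma adjusted p = 1.91e-05) and in N1KO (-1.43 ± 0.36, limma adjusted p = 0.0213, but 0.0605, 0.0724 and 0.0994 without control replicate 7, N1KO replicate 1 and N1KO replicate 3). It was at 100 to 174 CPM in marked and 18.4 to 29.3 CPM in unmarked controls, 14.1 to 43.4 CPM in N1OE and 37.2 to 65.0 CPM in N1KO. Every N1KO library thus lay above every unmarked control, and the N1OE range held that of the unmarked controls. Of the calls named for these list genes, the control sets by description also ended those of Ccn4, Tgfbr2 and Smurf1 in N1OE, Fbn2 and Ltbp2 in N1OE and N1KO, and Thbs3 and Myof in N1KO.

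**Figure D4:**
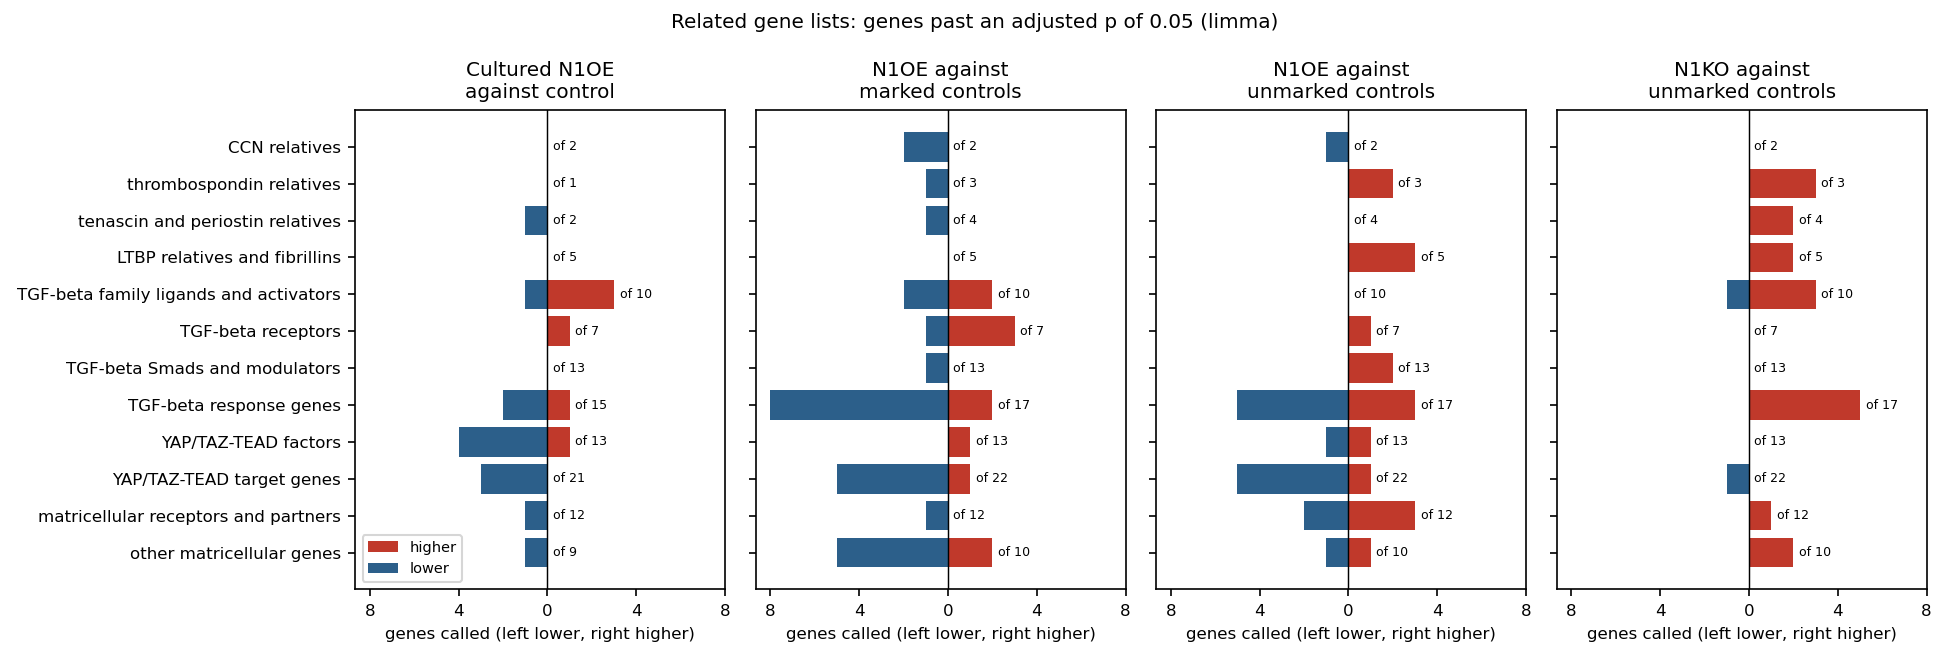
Number of genes called higher (bars to the right) and lower (bars to the left) in each of the 12 lists. Panels show cultured N1OE against control, re-isolated N1OE against the marked and the unmarked controls, and N1KO against the unmarked controls. In re-isolated N1OE the TGF-beta response genes hold the most calls, with 8 falls of 17 tested against marked controls. N1KO against unmarked controls has 18 rises and 2 falls over all lists.

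Genes with the most similar profiles were found by the root mean square distance between log2 CPM profiles over the 23 libraries, each centred on its own mean, among 14161 genes. The profiles share the split between culture and re-isolation, so a small distance describes these libraries and says nothing of shared control. Zbtb20 (0.484) and Ppp1r15a (0.535) were nearest to Ccn1, Colec12 (0.797) and Tgm2 (0.862) to Ccn2, and Tspan11 (1.82) and Ccdc3 (1.99) to Ccn3. Tgfbi was nearest to Anxa8 (1.47) and Fst (1.57). For Thbs1 the nearest were Ndrg4 (0.726) and Mmp23 (0.815), for Thbs2 Sult1a1 (0.765) and Rab32 (0.797), for Tnc Maged1 (0.674) and Carmil1 (0.769), and for Ltbp1 Eps8 (0.662) and Adam19 (0.702). Among the 8 genes themselves the closest pair was Tnc and Ltbp1 (0.919), then Thbs1 and Ltbp1 (1.12) and Ccn1 and Ccn2 (1.34), while the nearest to Ccn3 was Tgfbi at 2.07.

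On the GRCm38/mm10 assembly with GENCODE M21 the genes lie apart, except that chromosome 17 holds Thbs2 (chr17:14665500-14694235, minus strand) and Ltbp1 (chr17:75005568-75392512, plus strand). Ccn1 is at chr3:145646976-145649981 (minus), Ccn2 at chr10:24595442-24598683 (plus), Ccn3 at chr15:54745702-54754039 (plus) and Tgfbi at chr13:56609523-56639562 (plus). Thbs1 is at chr2:118111876-118127133 (plus) and Tnc at chr4:63959785-64047015 (minus). Exons on the opposite strand overlap Ccn2 (Gm15270, 665 bases), Thbs1 (Gm29233, 208 bases) and Tnc (8030451A03Rik, 176 bases). None of these 3 is in the table, and since no source used here gives the strand setting of the counting, reads of the partners cannot be told apart.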

How the data were processed

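The deposited table, made by the authors, holds log2 CPM (reads scaled to library size) with a small prior count, whose lowest value, -4.19, stands for 0 reads. The submitters' processing notes name Trimmomatic 0.33 and FastQC for the reads, featureCounts for counting, edgeR and the mm10 genome. No source used here gives the aligner or the annotation. The labels' protocols give Trizol and TruSeq stranded libraries for cultured cells, and Buffer RLT, beads, NEBNext low-input cDNA and Nextera XT for re-isolated cells. Value steps gave back whole reads (100.0% whole within 0.05 reads). Whether values were adjusted before deposit is not known. CPM printed here is 2 to the deposited value, minus the prior.

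The log2 values of genes that reached 1 CPM in 3 or more libraries were tested with limma 3.58.1 (R 4.3.3, trend, two-sided), adjusted after Benjamini-Hochberg over all tested genes, with a threshold of 0.05. Cultured libraries had their own fit. Re-isolated libraries were fitted with 3 groups, and again with the controls split into 2 sets. Folds are 2 to the limma log2 fold change, errors are SE, and the script was tested on simulated data. Counting intervals (95%) hold counting error only. The members and lists were chosen with earlier results of these data known, and the immediate early list after its values were seen. Named pathway genes are up to 2 per list with the smallest adjusted p. GENCODE M21 held 21224 of the 21264 gene IDs. Alternatives were pseudocounts of 1 and 5, no filter, median ratio scaling, limma-voom, array weights, a replicate block, control sets by description, 2 groups alone and each library left out.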

Additional observations from a re-analysis of the deposited data

Results flagged for a closer look

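The level of Ccn3 in the marked controls had a low library. Control replicate 7 held 35.1 CPM, against 165 to 221 CPM in the other 4, and the gap to its neighbour was 0.842 of the whole range on the log2 scale, above the Dixon limit of 0.710 for 5 libraries. In all 40 groups of libraries were examined in this way, and chance flags about 1 in 20. This is the library whose description and header differ in the mark.

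The N1OE value of Ccn1 had opposite signs in the 2 settings, with no call after re-isolation. The log2 difference between N1OE and control was -1.81 in culture, where all N1OE libraries lay below all controls, and 0.89 after re-isolation against all 9 controls (limma adjusted p = 0.162). The culture value was among those used to choose the genes. The difference between the settings was not tested, and setting and library kit cannot be told apart.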

How the results depend on the processing

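Counts of the 8 genes called were recomputed under every alternative. N1OE against all controls kept 0 throughout, and N1KO against all controls had 1 with array weights. N1OE against N1KO ranged from 1 to 4 with a library left out. N1OE against the unmarked controls, with 2 called, had 1 with log2(CPM + 5), without a filter, with array weights and with the replicate block, 0 with the control sets by description, and 1 to 2 with a library left out. N1KO against the marked controls, with 2 called, had 5 with array weights, 0 with the replicate block, 0 with the sets by description and 1 to 2 with a library left out. Array weights also raised the calls over all genes in that comparison, from 835 to 2266. Marked against unmarked controls, with 6 called, had 0 with the sets by description. With a library left out, N1OE against the marked controls ranged from 4 to 6 and N1KO against the unmarked controls from 5 to 6. In the cultured groups, whose values chose the genes, 6 to 8 genes did not overlap. Leaving out a library can only keep or add such genes, and the share of all genes in these smaller groups was not counted.

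Same-numbered libraries, by the replicate numbers of the sample titles, had correlations of deviations of -0.156 to 0.155 after re-isolation. In culture these were 0, 0.083 and 0.281. The column headers number most controls otherwise. Pairing by the header numbers was not examined, so pairing was not excluded. As a block the title numbers gave 5 calls in N1OE against N1KO (Ccn3 added, limma adjusted p = 0.0118) and 5 in N1OE against the marked controls. They gave 5 in N1KO against the unmarked and 4 in marked against unmarked controls.

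Of all recomputed values 1083 kept direction and side of the threshold, 44 lost and 13 gained a call, 6 moved and 38 changed sign, all of these with no call in either fit. In N1OE against the unmarked controls Tgfbi went to -0.029 with log2(CPM + 5), -0.081 with median ratio scaling, -0.11 with array weights and -0.90 with the sets by description. Thbs1 went to -0.066, -0.0057 and -0.53 under the last 3 of these, and Thbs2 to -0.50 and Ltbp1 to -0.14 with the sets by description. With array weights Ccn1 in N1KO went to -0.024 against all, -0.029 against marked and -0.069 against unmarked controls. With the replicate block Ltbp1 in N1KO against all controls went to 0.23, Tnc in N1OE against N1KO to -0.048, and marked against unmarked controls to 0.26 for Ccn1 and 0.10 for Ccn2. With a library left out the ranges were, for Ccn1, -0.35 to 0.23 between the control sets, and in N1KO -0.29 to 0.46 against all, -0.24 to 0.51 against marked and -0.35 to 0.41 against unmarked controls. They were -0.40 to 0.059 for Ltbp1 in N1KO against all controls and -0.087 to 0.46 for Tnc in N1OE against N1KO. In N1OE against the unmarked controls they were -0.20 to 1.34 for Ccn3, -0.33 to 0.53 for Tgfbi and -0.13 to 0.32 for Thbs1. The cause of these shifts was not tested.

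Over all genes the number called in N1KO against all controls was 93, with 35 in a fit of these 2 groups alone, 492 with array weights, 12 without N1KO replicate 2 and 46 without N1KO replicate 1. The cultured calls fell from 1325 to 158 without N1OE replicate 3. The replicate block took the calls in N1OE from 1000 to 445 against all, from 1905 to 624 against marked and from 2693 to 779 against unmarked controls, and in N1KO from 835 to 42 against marked and from 916 to 429 against unmarked controls. The sets by description left 1031 and 1239 in N1OE and 50 and 256 in N1KO against marked and unmarked controls, and 0 in place of 3247 between the sets. Array weights gave 2067 in place of 1040 between N1OE and N1KO.

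Depth limits Tgfbi, Ccn2 and Ccn3 in cultured N1OE, where 3, 19 and 24 reads stand behind the group. Groups of 3 to 5 libraries, a control mark that no label explains and other cells' markers that vary with the groups limit the re-isolated comparisons.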
